A study of Mus musculus with 2 samples.

Results

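Pituicytes, the glia of the neurohypophysis (NH), were compared directly with the cells of the intermediate lobe (IL) of the pituitary that came along in the same dissections. A cell counted as a pituicyte if it belonged to one of the 3 clusters that the deposited table of cluster means names pituicytes a, b and c, and as an IL cell if it belonged to neural progenitor a or b of that table. Of 528 cells kept, 344 were members, 196 of them pituicytes (108 in pool 1 and 88 in pool 2) and 148 of them IL cells (80 and 68). Each pool held the NH of 5 male C57BL/6 mice aged 3 months, without any treatment, digested with Liberase TM and papain and captured on the 10x Chromium platform with version 2 chemistry. Both sides of the comparison therefore came from the same 2 pools, individual mice could not be told apart within a pool, and IL cells were residual tissue of the dissection and not a dissected IL.

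Pituicytes surround the axon endings of hypothalamic neurons that release oxytocin and vasopressin into the blood, and they derive from the floor of the embryonic hypothalamus. IL cells are mostly melanotrophs, endocrine cells that derive from the oral ectoderm, make the precursor proopiomelanocortin (Pomc), cut it with prohormone convertases into melanocyte-stimulating hormone and store the product in dense-core vesicles. The 2 cell types lie side by side in the adult pituitary and have different embryonic origins.

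Molecules were counted by unique molecular identifiers (UMIs). Summed over cells, the pituicytes gave 235655 and 253480 UMIs in pools 1 and 2 and the IL cells 281271 and 249540, and levels are given as UMIs per 1e6 UMIs of such a sum (CPM), in the order pool 1 and pool 2. Each side has 2 pools as replicates (n = 2), and the standard errors (SE) come from the edgeR fit. A pituicyte held a median of 2056 UMIs and an IL cell 3249, and the median share of UMIs from mitochondrial transcripts was 14.9% in pituicytes and 9.90% in IL cells. No barcode of the kept cells was shared between the pools. The authors built the clusters from the expression of these same cells, so the tests below give no independent evidence that the sides differ. The fit borrows the spread between pools across all genes, so a small p need not mean that a difference repeated in both pools. Cd74 and Gh below were called although their pools were unlike.

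The 4 markers followed the named sides. A UMI of Col25a1 or Scn7a and none of Pcsk2 was found in 178 of the 196 pituicytes, and a Pcsk2 UMI with neither of the former in 121 of the 148 IL cells. Col25a1, a transmembrane collagen (chr3:130131501-130599877, plus strand), had 1617 and 1724 CPM in pituicytes and 49.8 and 8.02 CPM in IL cells (log2 fold change 5.68 ± 0.38 SE, edgeR adjusted p = 1.10e-14, pituicytes over IL cells). For Scn7a, an atypical sodium channel (chr2:66673425-66784914, minus strand), the levels were 1663 and 1779 CPM in pituicytes and 60.4 and 16 CPM in IL cells (log2 fold change 5.33 ± 0.35 SE, edgeR adjusted p = 1.10e-14). Both pituicyte sums lay far above both IL sums for these genes. Pcsk2, the prohormone convertase 2 (chr2:143546156-143816285, plus strand), had 55.2 and 11.8 CPM in pituicytes and 4807 and 4532 CPM in IL cells (log2 fold change -7.22 ± 0.40 SE, edgeR adjusted p = 4.19e-16). Pomc (chr12:3954951-3960642, plus strand) took 4048 and 3117 CPM in pituicytes and 119412 and 89661 CPM in IL cells (log2 fold change -4.96 ± 0.35 SE, edgeR adjusted p = 4.69e-14), and it alone made up 10.5% of all UMIs of the IL cells. Coordinates are those of the mm10 annotation.

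Most of the Pomc in the pituicyte sums lay in 4 cells. In 2 pituicytes of each pool Pomc was 1% or more of the UMIs (3.00% to 17.7%), and these cells held 843 of the 954 pituicyte Pomc UMIs of pool 1 and 716 of the 790 of pool 2. The highest share in the other pituicytes was 0.705%, and the median over all pituicytes was 0.0309%. Conversely, 12 IL cells (5 in pool 1 and 7 in pool 2) had Pomc under 1% of their UMIs, where the median IL cell had 9.75%. In pool 2, but not in pool 1, 7 IL cells had growth hormone and prolactin, the products of anterior lobe cells, at 1.38% to 40.7% of their UMIs, and 6 of these 7 were among the cells with little Pomc. Whether the 17 cells were doublets or misplaced cells was not tested. Without them Pomc stood at 484 and 302 CPM in pituicytes and 122101 and 98181 CPM in IL cells (log2 fold change -8.24), a value that the 1% limit itself sets. Other low pituicyte levels of IL genes also lay partly in these cells, and only some are given without them below. Without the 17 cells the pituicyte levels were 17.5 and 0 CPM for Pcsk2 and 4.36 and 4.08 CPM for Syt1. They were 0 and 4.08 CPM for Snap25, and 0 in both pools for Syt4 and Epcam.

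**Figure D1:**
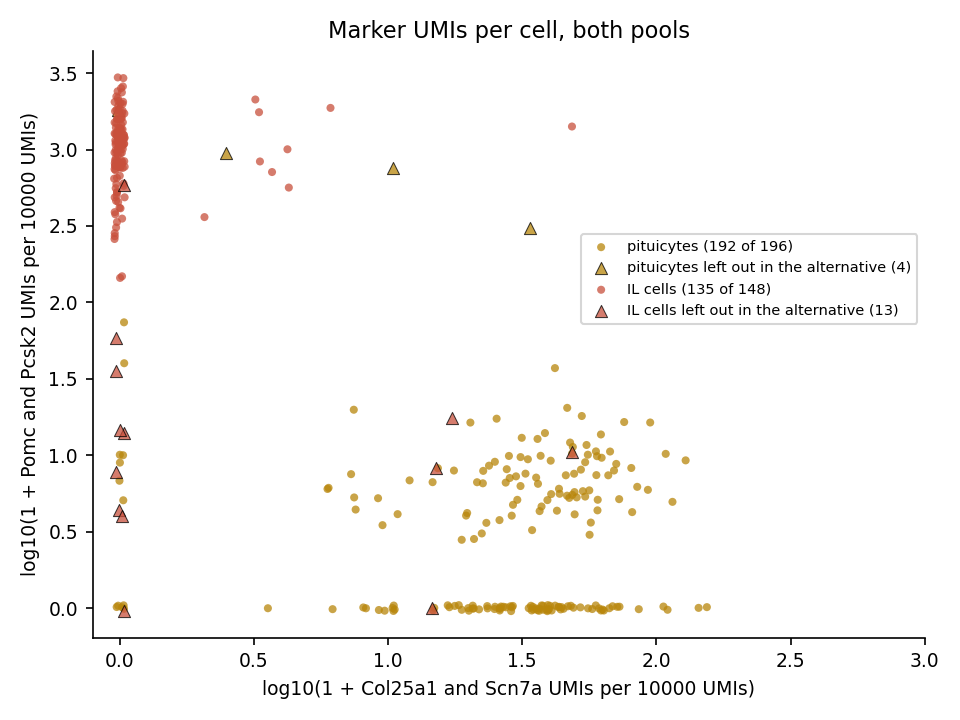
Marker UMIs of the 344 cells, with Col25a1 and Scn7a together on the horizontal axis and Pomc and Pcsk2 together on the vertical axis, each as log10 of 1 plus UMIs per 10000 UMIs of the cell, with a small random shift so that points at 0 can be seen. Pituicytes spread along the lower right and IL cells along the upper left, and the 17 outlined triangles are the cells that go against their label by Pomc, Gh or Prl.

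Pomc was also read in cells that should lack it. A Pomc UMI was found in 55.6% of pituicytes (109 of 196, exact 95% interval 48.4% to 62.7%) and in 59.9% of the macrophage, microglia and T-cell like cells of the same libraries (82 of 137, 51.1% to 68.1%), against 98.6% of IL cells (146 of 148, 95.2% to 99.8%). The share in pituicytes therefore lay near that of these immune cells, whose median depth was 1678 UMIs. With every cell thinned to 1000 UMIs, the shares were 30.1% in pituicytes and 36.5% in immune cells. Whether the Pomc UMIs of pituicytes are background was not tested. Pcsk2 was found in 3.57% of pituicytes and 87.8% of IL cells, Col25a1 in 87.8% of pituicytes and 4.05% of IL cells, and Scn7a in 85.2% and 6.76%. After every cell was thinned to 1000 UMIs, Col25a1 remained in 76.5% of pituicytes and 2.70% of IL cells, and Pcsk2 in 2.04% and 85.1%. These intervals cover counting error only.

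Over all genes the comparison was broad and nearly even. Of 4406 genes with enough UMIs to be tested, 676 (15.3%) were higher in pituicytes and 618 (14%) were higher in IL cells, at an edgeR adjusted p of at most 0.05 and a log2 fold change of at least 1, and the median log2 fold change of all genes was -0.03. Genes called higher in pituicytes made up 13.7% of the UMIs of pituicytes and 2.46% of those of IL cells, and genes called higher in IL cells made up 24.3% of the UMIs of IL cells and 3.43% of those of pituicytes. The calls were made on these same sums, so agreement of called genes between the pools is largely built in and is no replication. In 1293 of the 1294 called genes the direction was the same in both pools, and 981 passed a log2 ratio of 1 in each pool on its own. The exception was Cd74, the invariant chain of MHC class II, with 407 and 27.6 CPM in pituicytes and 49.8 and 36.1 CPM in IL cells, where pool 2 went against pool 1, and DESeq2 did not call it (adjusted p = 0.437). For 1105 genes (25.1%) the 95% interval of the log2 fold change lay within 1 on either side of 0, and for 2007 further genes that were not called it reached beyond that, so these pools could not place them.

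**Figure D2:**
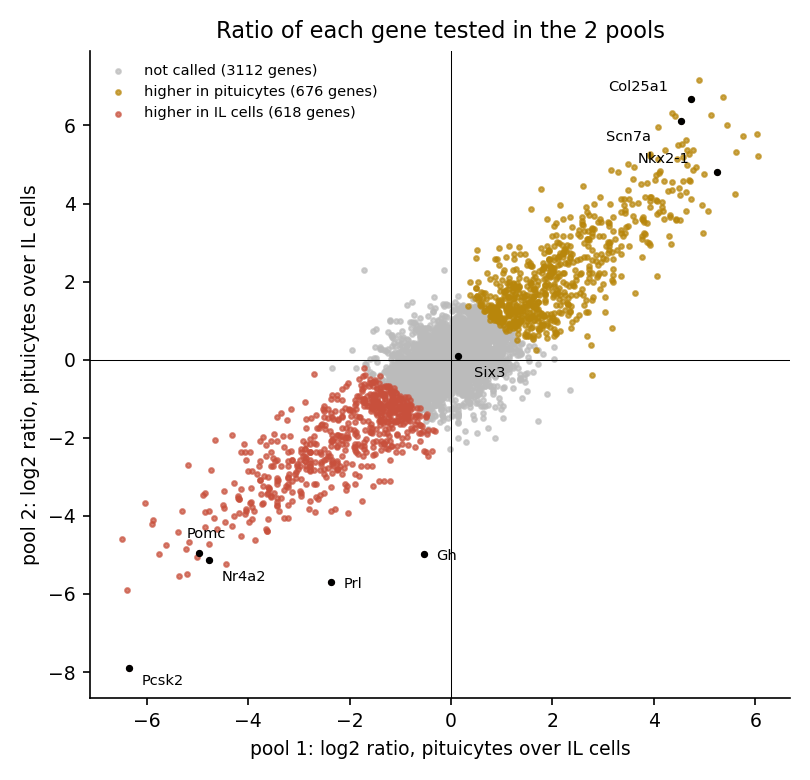
Log2 ratio of pituicytes over IL cells for the 4406 genes tested, in pool 1 (horizontal) and pool 2 (vertical), on CPM with a small count added. The 676 genes called higher in pituicytes lie at the upper right, except for Cd74, and the 618 called higher in IL cells at the lower left, while Gh and Prl lie far lower in pool 2 than in pool 1.

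Without the 17 cells, 678 genes were called higher in pituicytes and 629 in IL cells (15.9% and 14.8% of 4255 genes tested), of which 653 and 590 were among those named above. Cells with a mitochondrial share under 10% gave 283 and 293 calls (261 and 266 of them among those named above), and cells thinned to 1000 UMIs 222 and 150 (216 and 137), both on fewer UMIs and fewer genes. The former rest on 11 and 38 pituicytes and 39 and 37 IL cells.

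By fitted fold change, the 12 leading genes of pituicytes had no UMI in the IL cells of either pool. The ranking favours such genes, since a fitted fold at 0 UMIs depends on the prior count. Some genes with a few UMIs in IL cells had measured ratios above the bounds given here, such as Slc4a4 (259-fold) and Hes1 (192-fold). Nkx2-1, a homeobox factor of the ventral hypothalamus, had 289 and 229 CPM in pituicytes, at least 45.6-fold higher than in IL cells when the 0 UMIs there are replaced by 3 over both pools. Ano1, a calcium-activated chloride channel, had 204 and 237 CPM (at least 39.1-fold), and Mlc1, a membrane protein of astrocyte endfeet, 187 and 158 CPM (at least 30.4-fold). Scube1, which carries EGF-like repeats, stood at 153 and 189 CPM, the matrix protein Tgfbi at 136 and 193 CPM, the IGF-binding protein Igfbp2 at 132 and 130.2 CPM and Cthrc1 at 110.3 and 142 CPM. Receptors and signals were Lgr6, a receptor for R-spondins, with 106 and 185 CPM, the sphingosine-1-phosphate receptor S1pr1 with 110.3 and 118 CPM and the chemokine Cxcl10 with 123 and 134 CPM. The 63 UMIs of Cxcl10 lay in 10 of the 196 pituicytes (1 to 13 UMIs each), and it was found in 17.5% of immune cells, whereas the other 11 genes were found in 20.9% to 40.8% of pituicytes. The homeobox gene Meis2 (144 and 162 CPM) and Btbd17 (119 and 197 CPM) completed the 12, and all 12 were at 0 UMIs in IL cells. In all, 31 genes called higher in pituicytes had no UMI in IL cells.

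On the IL side, 8 of the 12 genes leading by the same ranking had no UMI in pituicytes, as had 38 of all genes called higher in IL cells. Esm1, a secreted proteoglycan known as endocan, had 295 and 361 CPM in IL cells, at least 53.1-fold higher than in pituicytes. The neuronal small GTPase Rit2 had 263 and 349 CPM (at least 49.5-fold) and the zinc finger factor Egr4 171 and 152 CPM (at least 26.4-fold). Necab2, a calcium-binding protein, had 153 and 132 CPM, the synaptic membrane protein Slitrk6 124 and 112 CPM and Grin1, the obligatory subunit of NMDA receptors, 103 and 124 CPM. Gulo, the last enzyme of vitamin C synthesis, had 114 and 108 CPM and Asphd2 103 and 100.2 CPM. The other leading genes, beside Pcsk2, had a few UMIs in pituicytes. Oacyl, an acyltransferase-like gene, had 939 and 894 CPM in IL cells and 3 UMIs in all pituicytes (149.6-fold, with a 95% counting interval of 50.9 to 728), and none of those 3 remained without the 17 cells. Pabpc1l, a poly(A)-binding protein, and Sphkap, an anchor for protein kinase A, had 1 UMI each in pituicytes, with 299 and 236 CPM and 192 and 297 CPM in IL cells.

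**Figure D3:**
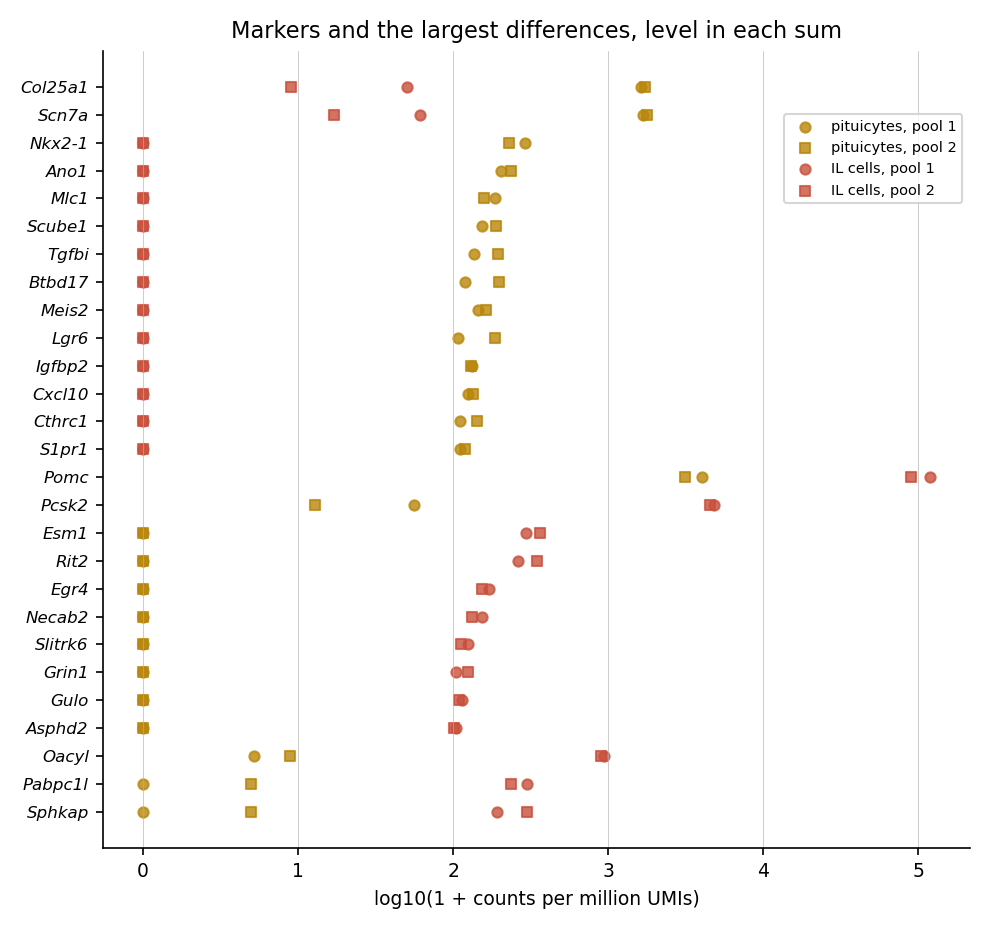
Level of the 4 markers and the leading genes of each direction in the 4 sums, as log10 of 1 plus CPM, with circles for pool 1 and squares for pool 2. No gene shown has overlapping sides; points at 0 had no UMI.

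The secretory machinery set the IL cells apart as a group. Counts over lists of genes are descriptive, since a gene read on 1 side alone could be tested only if it was high there, and the lists were chosen with earlier results known. Each count below stands beside 15.3% of all genes tested called higher in pituicytes and 14% in IL cells. Of 12 genes of prohormone processing, 10 could be tested, 6 were higher in IL cells and 1 in pituicytes, with a median log2 fold change of -3.20. The list holds the markers Pomc and Pcsk2 themselves, and Oacyl, which was among the leading IL genes above. Scg5, the chaperone of Pcsk2, had 42.4 and 63.1 CPM in pituicytes and 626 and 713 CPM in IL cells (log2 fold change -3.74 ± 0.30 SE, edgeR adjusted p = 8.84e-13). Ctsl, a lysosomal protease that also cuts prohormones, was the member higher in pituicytes, with 284 and 299.8 CPM against 107 and 148 CPM (log2 fold change 1.11 ± 0.26 SE, edgeR adjusted p = 7.80e-04), close to the fold limit and not called by DESeq2 (adjusted p = 0.0585). Pam, which amidates peptide ends, was not called, with 467 and 821 CPM in pituicytes and 924 and 1306 CPM in IL cells (95% interval of the log2 fold change -1.41 to -0.37), nor was Furin, a convertase found in most cells (67.9 and 90.7 CPM against 53.3 and 44.1 CPM). Pam had an edgeR adjusted p of 0.00567 and missed the fold limit alone. Both passed the limits when only cells with a mitochondrial share under 10% were used, among them 11 pituicytes of pool 1.

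Granins and other proteins of dense-core vesicles went the same way. Of 13 such genes, 10 could be tested, and 9 were higher in IL cells (median log2 fold change -4.63, or -4.56 with genes lacking UMIs on 1 side set to their bound). Summed over the list, the levels were 165 and 319.6 CPM in pituicytes and 4469 and 4196 CPM in IL cells. Chga, or chromogranin A, had 25.5 and 19.7 CPM in pituicytes and 1109 and 665 CPM in IL cells (log2 fold change -5.38 ± 0.37 SE, edgeR adjusted p = 2.54e-14), and without the 17 cells no Chga UMI was left in pituicytes. Chgb, or chromogranin B, had 3 UMIs in pituicytes and 388 and 585 CPM in IL cells, a ratio of 78.3-fold, with a 95% counting interval of 26.5 to 382. The vesicle membrane proteins Ptprn and Ptprn2 had 427 and 345 CPM and 78.2 and 44.1 CPM in IL cells, and Ptprn2 had no UMI in pituicytes. Nucb2, the precursor of nesfatin, was the member not called, at 29.7 and 71 CPM against 67.6 and 112 CPM.

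Proteins of vesicle release were also higher in IL cells. Of 23 genes of regulated exocytosis, 13 could be tested, of which 12 were higher in IL cells (median log2 fold change -3.49). Snap25, a core protein of vesicle fusion, had 0 and 23.7 CPM in pituicytes and 647 and 717 CPM in IL cells (log2 fold change -5.84 ± 0.42 SE, edgeR adjusted p = 7.68e-14). The calcium sensor Syt1 had 459 and 493 CPM in IL cells against 17 and 19.7 CPM in pituicytes. Another synaptotagmin, Syt4, had 281 and 429 CPM in IL cells against 0 and 23.7 CPM in pituicytes. Cplx2, which clamps fusion, had 2 UMIs in pituicytes and 171 and 196 CPM in IL cells. Syt11, also a synaptotagmin, was not called (95% interval 0.35 to 1.50), with 208 and 299.8 CPM in pituicytes and 81.8 and 172 CPM in IL cells.

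The sequence just before the start of some of these genes is printed to show the DNA next to genes on either side of the comparison. The windows cover the 250 bases before the start site in RefSeq (GRCm38.p6), 5′ to 3′ on the gene's strand, and lie at chr1:79440027-79440276 for Scg2 (secretogranin II, minus strand), chr12:102554691-102554940 for Chga (plus strand), chr2:57124004-57124253 for Nr4a2 (minus strand), chr12:3954695-3954944 for Pomc (plus strand) and chr3:130180595-130180844 for Col25a1 (plus strand). The RefSeq start of Col25a1 lies inside the longer interval that the mm10 annotation gives for the gene, so its window is not at the start given above. Capitals mark TGACG, the core of the element bound by CREB-family factors, and the TATAAA box, each on either strand.
Scg2: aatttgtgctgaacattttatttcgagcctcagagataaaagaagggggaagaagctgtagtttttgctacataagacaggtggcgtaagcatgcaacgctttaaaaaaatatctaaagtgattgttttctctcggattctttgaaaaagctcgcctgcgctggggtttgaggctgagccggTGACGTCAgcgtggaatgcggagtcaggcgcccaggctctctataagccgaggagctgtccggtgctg
Chga: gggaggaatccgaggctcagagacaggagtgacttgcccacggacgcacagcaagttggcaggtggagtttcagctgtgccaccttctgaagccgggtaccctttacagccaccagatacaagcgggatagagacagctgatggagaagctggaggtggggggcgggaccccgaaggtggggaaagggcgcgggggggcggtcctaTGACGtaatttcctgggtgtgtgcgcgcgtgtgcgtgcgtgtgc
Nr4a2: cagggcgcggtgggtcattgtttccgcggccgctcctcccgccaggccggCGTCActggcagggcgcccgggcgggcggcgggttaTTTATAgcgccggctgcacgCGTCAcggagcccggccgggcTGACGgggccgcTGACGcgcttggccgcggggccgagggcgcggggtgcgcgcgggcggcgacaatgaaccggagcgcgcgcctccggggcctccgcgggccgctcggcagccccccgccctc
Pomc: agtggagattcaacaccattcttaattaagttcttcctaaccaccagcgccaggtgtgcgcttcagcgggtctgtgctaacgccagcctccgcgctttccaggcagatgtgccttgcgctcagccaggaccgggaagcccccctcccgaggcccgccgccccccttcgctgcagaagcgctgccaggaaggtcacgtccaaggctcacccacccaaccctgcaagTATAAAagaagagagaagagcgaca
Col25a1: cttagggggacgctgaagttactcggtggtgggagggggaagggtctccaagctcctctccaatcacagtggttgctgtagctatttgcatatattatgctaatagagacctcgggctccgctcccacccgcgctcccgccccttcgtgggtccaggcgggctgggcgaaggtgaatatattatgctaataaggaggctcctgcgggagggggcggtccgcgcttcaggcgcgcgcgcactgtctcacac
In Scg2 the letters TGACGTCA count as 2 overlapping matches to TGACG, 1 on each strand. Chga held 1 match and Nr4a2 held 4, together with 1 TATAAA match on the opposite strand. Pomc held TATAAA on its own strand and no TGACG, and Col25a1 held neither. Among 27025 genes with a listed window, 19.8% held TGACG, 1.77% TGACGTCA and 14.3% TATAAA on either strand. Among the 3534 of them that were tested here, the shares were 34.3%, 3.34% and 8.18%. A match is a description of the letters and not a bound site. A window was listed for 80.0% of the genes called higher in pituicytes and 76.9% of those called higher in IL cells. Of genes with a window, TGACG was held by 23.7% called higher in pituicytes, 35.2% called higher in IL cells and 36.4% not called. The TGACG share in genes higher in IL cells was thus close to the 34.3% of all genes tested. In the same order, the shares were 2.22%, 4.84% and 3.30% for TGACGTCA and 7.76%, 10.7% and 7.78% for TATAAA. These differences were not tested, and the printed windows are examples that do not stand for either side.

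Transcription factors split by lineage. Of 22 factors of the pituitary lineage, 9 could be tested, and 8 were higher in IL cells and 1 in pituicytes. Pitx1, a homeobox factor of the whole oral ectoderm lineage, had no UMI in pituicytes and 74.7 and 76.1 CPM in IL cells (at least 12.3-fold higher), and Lhx3, a LIM homeobox factor of the early pituitary, 46.2 and 40.1 CPM (at least 7.06-fold), which without the 17 cells were too few UMIs to be tested. Pax7, the pioneer factor of melanotrophs, had 1 UMI in pituicytes and 135 and 152 CPM in IL cells. Nr3c1, the glucocorticoid receptor, was the member higher in pituicytes, with 102 and 142 CPM against 21.3 and 36.1 CPM (log2 fold change 1.99 ± 0.42 SE, edgeR adjusted p = 1.94e-04).

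Among 24 factors of the hypothalamus and of glia, 18 could be tested, and 13 were higher in pituicytes and 2 in IL cells (median log2 fold change 3.36). Hes1, an effector of Notch, had 751 and 698 CPM in pituicytes and 2 UMIs in IL cells (192-fold, with a 95% counting interval of 52.8 to 1592). The T-box factor Tbx3 had 369 and 233 CPM in pituicytes and 1 UMI in IL cells, and the LIM homeobox factor Lhx2 had 199 and 213 CPM and 1 UMI. Id2, an inhibitor of helix-loop-helix factors, ran the other way, with 1 UMI in pituicytes and 156 and 184 CPM in IL cells. Related factors also parted between the sides. Six6, a homeobox factor of the hypothalamus and pituitary, had 3 UMIs in pituicytes and 167 and 140.3 CPM in IL cells (25.2-fold, with a 95% counting interval of 8.32 to 125), while its relative Six3 had 560.1 and 517 CPM in pituicytes and 480.0 and 449 CPM in IL cells. The log2 fold change of Six3 was 0.12 with a 95% interval of -0.36 to 0.59, so that a change of 2-fold or more lay outside it, and the sides overlapped across clusters. A Six3 UMI was found in 64.8% of pituicytes, 67.6% of IL cells and 2.19% of immune cells, and the part of background RNA was not tested. Nfia, a factor of glial fate, was likewise shared, with 390.4 and 604 CPM and 331 and 493 CPM (95% interval -0.32 to 0.68).

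Most astrocyte genes favoured pituicytes, while Gfap and S100b were hardly read. Of 28 astrocyte genes, 18 could be tested, of which 14 were higher in pituicytes and 2 in IL cells (median log2 fold change 2.43). Over all genes tested these shares were 15.3% and 14%, so the count on the IL side was near the general share. The bicarbonate transporter Slc4a4 had 509 and 469 CPM in pituicytes and 1 UMI in IL cells (259-fold, with a 95% counting interval of 46.1 to 10287). Gja1, the gap junction protein connexin 43, had 624 and 773 CPM against 17.8 and 8.02 CPM (log2 fold change 5.58 ± 0.38 SE, edgeR adjusted p = 1.66e-14), and the glutamate transporter Slc1a3 925 and 832 CPM against 81.8 and 20 CPM (log2 fold change 3.96 ± 0.34 SE, edgeR adjusted p = 5.32e-12). Gfap, the filament of reactive astrocytes, gave 2 and 4 UMIs in all pituicytes and 0 in IL cells, and S100b gave 1 UMI in an IL sum and none in pituicytes, so neither could be tested at this depth. Clu and Sparcl1, which encode secreted proteins, were the members higher in IL cells, Clu at 102 and 71 CPM in pituicytes and 416 and 289 CPM in IL cells (log2 fold change -2.13 ± 0.29 SE, edgeR adjusted p = 2.39e-07). DESeq2 did not call Sparcl1 (adjusted p = 0.0937).

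Every tanycyte gene that could be tested, 16 of 21 listed, was higher in pituicytes (median log2 fold change 4.83, or 4.65 with genes lacking UMIs on 1 side at their bound). Tanycytes are the ependymoglia of the hypothalamic floor, and the list holds the markers Col25a1 and Scn7a themselves. Gpr50, an orphan receptor of tanycytes, had 89.1 and 90.7 CPM in pituicytes and no UMI in IL cells (at least 15.9-fold higher). Fgf10, a growth factor of the infundibulum, had 412 and 517 CPM in pituicytes and 3 UMIs in IL cells (82.5-fold, with a 95% counting interval of 27.9 to 403), and the secreted protease Htra1 191 and 225 CPM and 1 UMI.

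Matrix genes formed a second large group on the pituicyte side. Of 25 collagens, proteoglycans and related genes, 17 could be tested, and 15 were higher in pituicytes and 1 in IL cells (median log2 fold change 4.60). The list holds the marker Col25a1 itself. Summed over the list, pituicytes had 11008 and 12608 CPM and IL cells 689.7 and 565 CPM. Col13a1, like Col25a1 a transmembrane collagen, had 1192 and 1309.8 CPM in pituicytes and 24.9 and 8.02 CPM in IL cells (log2 fold change 6.07 ± 0.37 SE, edgeR adjusted p = 2.20e-15). The growth factor Mdk, or midkine, had 284 and 319.6 CPM in pituicytes and 3 UMIs in IL cells, and the matrix protein Fbln2 had 199 and 118 CPM and 1 UMI. Cspg5, a chondroitin sulfate proteoglycan, was higher in IL cells, from 12.7 and 11.8 CPM in pituicytes to 42.7 and 40.1 CPM in IL cells (log2 fold change -1.82 ± 0.51 SE, edgeR adjusted p = 0.00849), a call that DESeq2 did not make (adjusted p = 0.258).

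Signals to blood vessels were read mostly in pituicytes. Of 17 listed genes, 8 could be tested, and 8 were higher in pituicytes (median log2 fold change 4.47). Vegfa, the main growth factor of endothelium, had 505 and 568 CPM in pituicytes and 14.2 and 4.01 CPM in IL cells (log2 fold change 5.66 ± 0.40 SE, edgeR adjusted p = 4.91e-14). Adrenomedullin, encoded by Adm and known to widen vessels, had 446 and 513 CPM and 17.8 and 0 CPM (log2 fold change 5.50 ± 0.43 SE, edgeR adjusted p = 5.90e-13). Angptl4 had 106 and 94.7 CPM in pituicytes and 1 UMI in IL cells, as had Tgfb2, a ligand of the TGF-beta family, at 89.1 and 55.2 CPM.

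Genes of the Notch, Wnt and BMP pathways followed, among them Hes1, which was also counted with the transcription factors above. Of 28 genes, 11 could be tested, and 10 were higher in pituicytes and 1 in IL cells (median log2 fold change 4.81, or 3.67 with genes lacking UMIs on 1 side at their bound). The ligand Wnt5a had 102 and 138 CPM in pituicytes and 1 UMI in IL cells. Of the Wnt receptors, Fzd5 had 306 and 339 CPM in pituicytes and 7.11 and 8.02 CPM in IL cells (log2 fold change 5.23 ± 0.43 SE, edgeR adjusted p = 1.23e-12), and Fzd2 had 80.6 and 55.2 CPM and no UMI in IL cells. Dlk1, a non-canonical Notch ligand that is also imprinted, was the member higher in IL cells, but with 56.9 and 268 CPM it was uneven between the pools, and without the 17 cells its IL levels were 58.2 and 4.43 CPM, too few UMIs to be tested. DESeq2 did not call it either (adjusted p = 0.155).

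**Figure D4:**
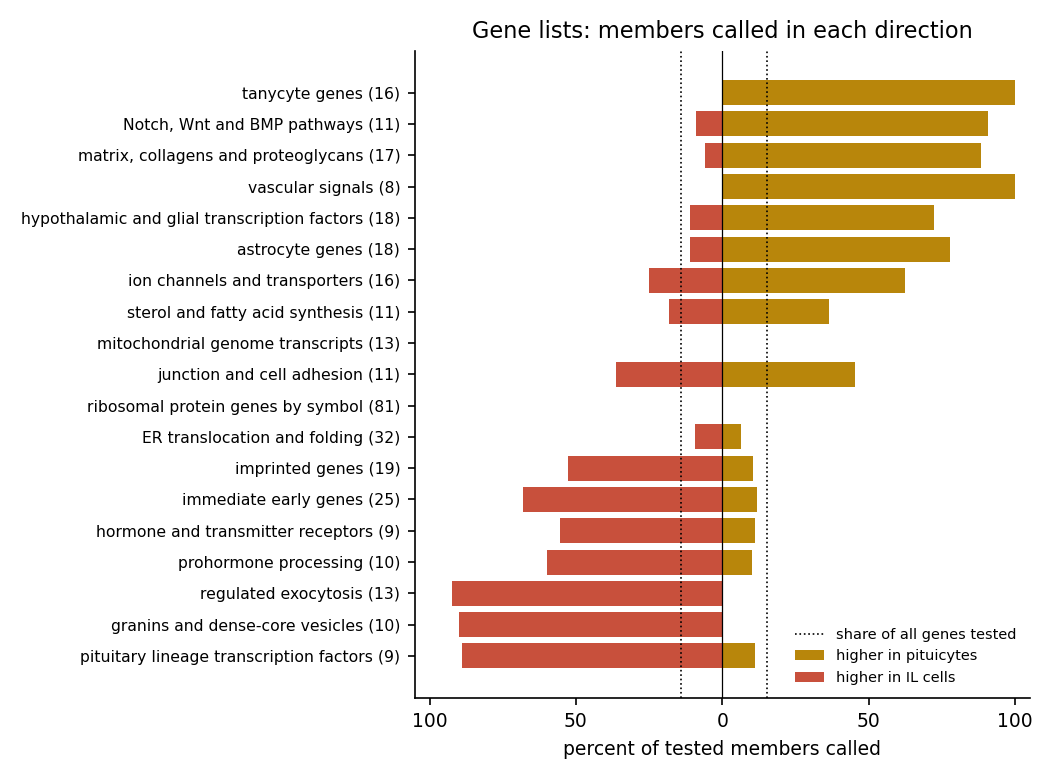
Percent of the tested members of each gene list that were called higher in pituicytes (right) or in IL cells (left), with the number tested in brackets and lists ordered by median log2 fold change. Dotted lines give the share of all 4406 genes called in each direction, 15.3% and 14%.

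Junction proteins differed by family member. Of 24 genes of junctions and adhesion, 11 could be tested, and 5 were higher in pituicytes and 4 in IL cells (median log2 fold change 0.07). Cldn10 had 675 and 1199 CPM in pituicytes and 14.2 and 0 CPM in IL cells (log2 fold change 6.76 ± 0.46 SE, edgeR adjusted p = 1.66e-14), whereas Cldn3, another claudin, had 17 and 7.89 CPM and 60.4 and 64.1 CPM (log2 fold change -2.39 ± 0.53 SE, edgeR adjusted p = 3.54e-04; DESeq2 adjusted p = 0.0553, not called). N-cadherin, encoded by Cdh2, stood at 662 and 821 CPM in pituicytes and 107 and 168 CPM in IL cells (log2 fold change 2.34 ± 0.27 SE, edgeR adjusted p = 4.16e-09). Epcam, an adhesion molecule of epithelia, had 12.7 and 7.89 CPM in pituicytes and 228 and 248 CPM in IL cells (log2 fold change -4.57 ± 0.43 SE, edgeR adjusted p = 6.53e-11). Cadm1 was not called, with a 95% interval of -0.42 to 0.57.

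Ion channels also differed by member. Of 32 ion channels and transporters, with the marker Scn7a among them, 16 could be tested, and 10 were higher in pituicytes and 4 in IL cells. The 4 on the IL side were all voltage-gated channel subunits. Scn3a, a neuronal sodium channel, had 67.6 and 84.2 CPM in IL cells and no UMI in pituicytes (at least 12.3-fold higher), while Scn7a, a member of the same gene family, marked the other side. The calcium channel genes Cacna2d1, Cacna1a and Cacna1d had log2 fold changes of -4.09, -2.40 and -2.31 with edgeR adjusted p values of 1.96e-08, 1.51e-04 and 5.94e-04, of which DESeq2 did not call Cacna1d (adjusted p = 0.0733). The sodium pump subunit Atp1b1 was not called (95% interval -0.69 to 0.52).

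Few receptors reached the depth of a test. Of 32 receptors for hormones and transmitters, 9 could be tested, of which 5 were higher in IL cells and 1 in pituicytes. Over all genes tested 14% and 15.3% were called in these directions, so the count on the pituicyte side was near the general share. Gria2, a glutamate receptor subunit, had 3 UMIs in pituicytes and 352 and 497 CPM in IL cells (68.5-fold, with a 95% counting interval of 23.1 to 335). All 3 UMIs lay in 1 pituicyte, and the interval treats them as independent. The GABA receptor subunit Gabrb1 had 71.1 and 84.2 CPM in IL cells and no UMI in pituicytes. Ntrk2, the receptor of brain-derived neurotrophic factor, was the member higher in pituicytes, with 619.5 and 710.1 CPM against 46.2 and 56.1 CPM (log2 fold change 3.60 ± 0.30 SE, edgeR adjusted p = 1.87e-12). The dopamine receptor Drd2, through which dopamine is known to restrain melanotrophs, gave 2 UMIs in all IL cells, and the oxytocin receptor Oxtr gave 1 UMI on each side, so neither level could be judged.

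Immediate early genes, which cells switch on within minutes of a stimulus, were mostly higher in IL cells. Of 28 genes, 25 could be tested, and 17 were higher in IL cells and 3 in pituicytes (median log2 fold change -1.97). Nr4a2 had 29.7 and 27.6 CPM in pituicytes and 953 and 1166 CPM in IL cells (log2 fold change -5.28 ± 0.33 SE, edgeR adjusted p = 3.48e-15), and its relative Nr4a1 17 and 31.6 CPM and 661 and 545 CPM (log2 fold change -4.70 ± 0.35 SE, edgeR adjusted p = 1.44e-13). Atf3, a stress-induced factor, went from 8.49 and 15.8 CPM to 139 and 204 CPM. Against this direction, the zinc finger factor Klf6 had 123 and 94.7 CPM in pituicytes and 3 UMIs in IL cells (19.2-fold, with a 95% counting interval of 6.21 to 95.9), the matrix-associated signal Cyr61 212 and 166 CPM against 24.9 and 4.01 CPM (log2 fold change 3.51 ± 0.46 SE, edgeR adjusted p = 8.90e-08), and Dusp6, which restrains ERK, 144 and 122 CPM against 10.7 and 12 CPM (log2 fold change 3.41 ± 0.49 SE, edgeR adjusted p = 6.16e-07). Jun was not called, and its sides overlapped, with 649 and 327 CPM in pituicytes and 384 and 256 CPM in IL cells. Both cell types went through the same digestion, and the part of dissociation in these levels was not tested.

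Imprinted genes, expressed from 1 parental copy, also leaned to IL cells. Of 28 genes, 27 were in the files and 19 could be tested, of which 10 were higher in IL cells and 2 in pituicytes (median log2 fold change -1.45). Over all genes tested 14% and 15.3% were called in these directions, so the count on the pituicyte side was near the general share. Nap1l5 had 21.2 and 39.5 CPM in pituicytes and 608 and 585 CPM in IL cells (log2 fold change -4.36 ± 0.33 SE, edgeR adjusted p = 2.37e-13), and Snhg11 29.7 and 31.6 CPM and 448 and 289 CPM (log2 fold change -3.68 ± 0.35 SE, edgeR adjusted p = 5.33e-11). The 2 members higher in pituicytes were Mest, at 2801 and 3590.0 CPM against 875 and 629 CPM (log2 fold change 1.98 ± 0.26 SE, edgeR adjusted p = 1.18e-07), and the cell cycle inhibitor Cdkn1c, at 199 and 181 CPM with 2 UMIs in IL cells. Nnat, which lies within the gene Blcap and may share reads with it, was uneven, with 25.5 and 189 CPM in pituicytes and 196 and 1671 CPM in IL cells, and its IL levels fell to 196 and 470.0 CPM without the 17 cells, 7 of which in pool 2 carried anterior lobe hormones. DESeq2 did not call it.

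**Figure D5:**
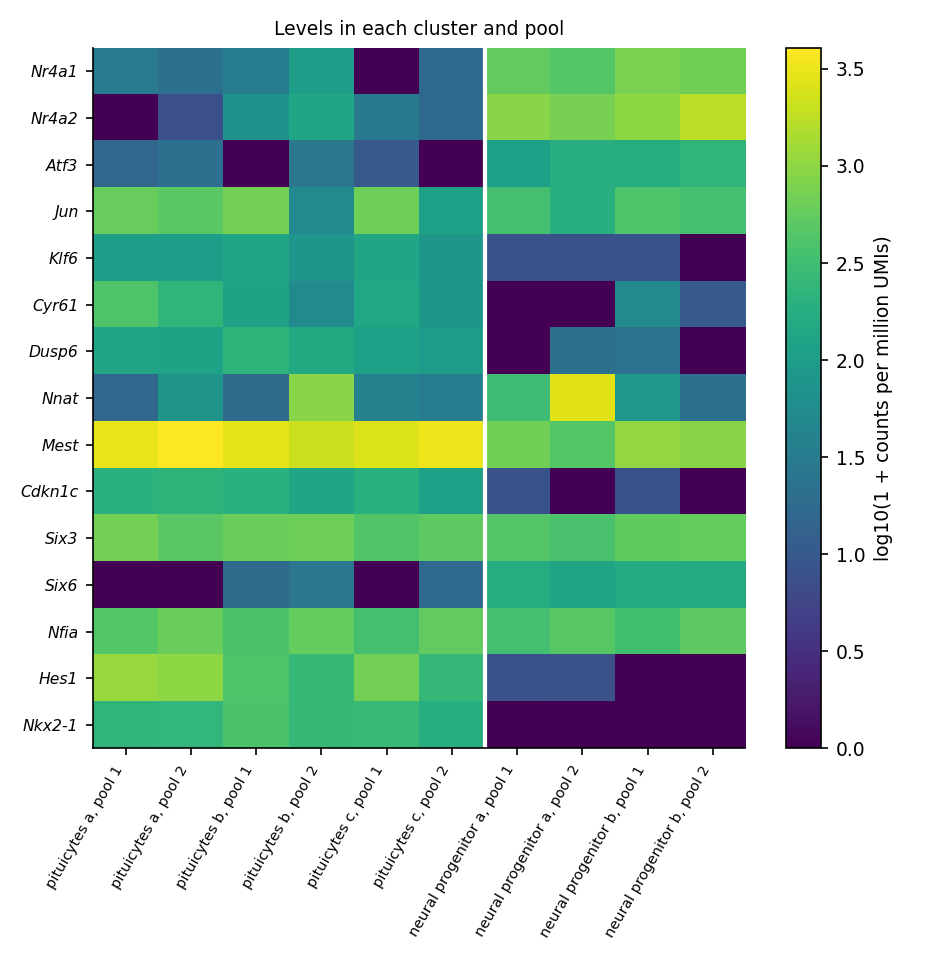
Levels of named immediate early genes, imprinted genes and transcription factors in the 10 sums of 5 clusters and 2 pools, as log10 of 1 plus CPM, with the 6 pituicyte sums left of the white line and the 4 IL sums (neural progenitor a and b) right of it. Nr4a2, Six6 and Nkx2-1 change at the line, Six3 and Nfia do not, and Nnat is high in pool 2 of neural progenitor a and of pituicytes b.

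Lipid genes gave a mixed account. Of 25 genes listed for sterol and fatty acid synthesis, 11 could be tested, and 4 were higher in pituicytes and 2 in IL cells. Over all genes tested these shares were 15.3% and 14%, so the count on the IL side was near the general share. The list also holds Abca1 and Lpl, which are not enzymes of synthesis. Srebf1, the regulator of fatty acid synthesis, had 815 and 517 CPM in pituicytes and 56.9 and 12 CPM in IL cells (log2 fold change 4.11 ± 0.38 SE, edgeR adjusted p = 2.33e-11), and the cholesterol exporter Abca1 127 and 201 CPM and 24.9 and 36.1 CPM (log2 fold change 2.33 ± 0.39 SE, edgeR adjusted p = 6.48e-06). Lpl, a lipase, was higher in IL cells (4.24 and 11.8 CPM against 85.3 and 112 CPM, log2 fold change -3.61 ± 0.56 SE, edgeR adjusted p = 2.26e-06). Acly, which makes cytosolic acetyl-CoA, was close to the fold limit (log2 fold change -1.07 ± 0.35 SE, edgeR adjusted p = 0.0171) and lost its call when library size replaced TMM scaling and with DESeq2 (adjusted p = 0.244). Insig1, a sterol sensor, had a 95% interval of -0.61 to 0.60 around no change.

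General protein synthesis hardly separated the cells. Of 34 genes of translocation and folding in the endoplasmic reticulum, 32 could be tested, 27 were not called, and for 19 the 95% interval lay within 1 on either side of 0. Sec61a1, the channel protein, had 815 and 1404 CPM in pituicytes and 864 and 1499 CPM in IL cells (95% interval -0.72 to 0.35). The exceptions included Creb3l2, a membrane-bound factor, at 50.9 and 67.1 CPM in pituicytes and 124 and 252 CPM in IL cells (log2 fold change -1.74 ± 0.34 SE, edgeR adjusted p = 8.95e-05), and Herpud1, at 97.6 and 126 CPM against 35.6 and 44.1 CPM (log2 fold change 1.39 ± 0.39 SE, edgeR adjusted p = 0.00487). DESeq2 called 1 gene of the list, higher in IL cells, and not Herpud1 (adjusted p = 0.130). Of 81 ribosomal protein genes tested, 0 were called in either direction by edgeR or DESeq2, 9 had an unadjusted edgeR p under 0.05, and 70 had intervals within 1 on either side of 0. All 13 mitochondrial transcripts had a higher fitted level in pituicytes, by 0.19 to 0.69 on the log2 scale, and edgeR and DESeq2 called 0 of them, with 2 at an unadjusted edgeR p under 0.05. Their summed level was 162475 and 122751 CPM in pituicytes and 102837 and 97824 CPM in IL cells.

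Most differences also held across the clusters of each side. Of 152 named genes, 142 could be tested and 110 were called, beside 29.4% of all genes tested. In 102 of the 110 the 6 cluster sums of pituicytes did not overlap the 4 cluster sums of IL cells. This held for 21.7% of all genes tested and 66.8% of all genes called. The named genes had been picked largely for being called, so the count describes their spread over clusters. The 8 with overlap were Gh, Nnat and Dlk1, which were uneven between pools, and Acly, Atf4, Cldn3, Creb3l2 and Elovl5. Col25a1 ranged from 1460 to 1968 CPM over the pituicyte sums and from 0 to 86.5 CPM over the IL sums, and Pcsk2 from 0 to 153 CPM and from 4350 to 4866 CPM.

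Most markers of other cell types were sparse on both sides, with exceptions given here and beside the results they touch. Summed over 12 macrophage and microglia markers, the levels were 208 and 406 CPM in pituicytes and 64 and 152 CPM in IL cells, and P2ry12 was at 0. For the 9 T-cell markers in the files they were 4.24 and 31.6 CPM and 28.4 and 4.01 CPM, with Cd3d, Cd3e and Cd3g at 0, and for 9 markers of vascular and leptomeningeal cells 67.9 and 63.1 CPM and 3.56 and 12 CPM. The 8 smooth muscle and pericyte markers gave 8.49 and 0 CPM and 3.56 and 4.01 CPM. None of these 4 lists had a member with enough UMIs for the test. Among 10 endothelial markers only Pecam1 could be tested, and it was not called (373 and 446 CPM against 263 and 369 CPM), while the list summed to 407 and 540.5 CPM and 270.2 and 381 CPM. Pecam1 was not sparse, with a UMI in 59.7% of pituicytes, 58.1% of IL cells and 57.7% of immune cells. The 8 epithelial-like markers reached 50.9 and 23.7 CPM in pituicytes and 366 and 381 CPM in IL cells, through Epcam and Cldn3, which endocrine cells also express. The oligodendrocyte list summed to 182 and 103 CPM and 64 and 84.2 CPM, and the erythrocyte list to 89.1 and 51.3 CPM and 42.7 and 365 CPM.

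Anterior lobe hormones and neurohormones moved with a side. Gh, growth hormone, had 55.2 and 245 CPM in pituicytes and 78.2 and 7438 CPM in IL cells (log2 fold change -4.69 ± 0.78 SE, edgeR adjusted p = 6.35e-06), and Prl, prolactin, 8.49 and 31.6 CPM and 71.1 and 1916 CPM (log2 fold change -5.62 ± 0.76 SE, edgeR adjusted p = 1.62e-07). The Gh call rested on pool 2 and was not made by DESeq2 (adjusted p = 0.139), and without the 17 cells its log2 fold change was 0.10. Prl was lower in pituicytes in each pool and kept its call without the 17 cells, at a log2 fold change of -1.97 (edgeR adjusted p = 0.00129). The neurohormone genes Oxt and Avp, made by hypothalamic neurons whose axons end in the NH, were higher in pituicytes, Oxt at 530.4 and 544 CPM against 99.5 and 84.2 CPM (log2 fold change 2.44 ± 0.27 SE, edgeR adjusted p = 3.46e-09) and Avp at 110.3 and 67.1 CPM against 28.4 and 12 CPM (log2 fold change 1.97 ± 0.49 SE, edgeR adjusted p = 0.00158; DESeq2 adjusted p = 0.0604, not called). An Oxt UMI was found in 46.4% of pituicytes, 27.7% of IL cells and 16.8% of immune cells, and after thinning to 1000 UMIs in 29.1%, 11.5% and 8.76%. Calb1, a calcium-binding protein listed with them, was higher in IL cells (12.7 and 19.7 CPM against 288 and 321 CPM, log2 fold change -4.27 ± 0.37 SE, edgeR adjusted p = 8.55e-12). At the estimated share of free RNA, free RNA alone would give 385 and 327 CPM of Oxt and 83.9 and 71.4 CPM of Avp on either side, more than was measured in IL cells and, for Avp in pool 2, more than in pituicytes. The profile of free RNA was that of pool 1 in both pools, so the pool 2 values assume the same profile there. Oxt and Calb1 kept their calls when free RNA was subtracted, and Avp then had too few UMIs to be tested. For Oxt the subtraction could not test the part of free RNA. The expected level exceeded the IL level, so all Oxt UMIs of IL cells were removed and some remained in pituicytes. The part of attached axon pieces in the Oxt level was not tested.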

How the data were processed

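For each pool, unnormalized counts of UMIs by gene and barcode were deposited. The authors ran Cell Ranger 2.0.0 on mm10 with 1500 forced cells. The matrix of pool 1 held 737280 barcodes (170936 with a UMI) and that of pool 2 held 1500, so the 2 pools started from unlike barcode sets. A deposited table holds the mean level of each cluster over both pools, from UMIs scaled to 10000 per cell and averaged (Seurat 2.3). Other Cell Ranger versions named in the submitters' processing notes were not used here. Barcodes were kept as cells above 1000 and below 10000 UMIs, above 400 and below 5000 genes and below 25% mitochondrial UMIs, and each went to the cluster in which a least-squares solution of the deposited means gave it its full weight (largest weight at least 0.972, second at most 0.0033). Doublets were not called. Counts were summed per pool and side.

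The 4 sums were tested with edgeR 4.0.16 (R 4.3.3): TMM scaling (factors 0.933 to 1.08), default filter (minimum count 10, total 15), quasi-likelihood fit with 2 residual degrees of freedom and common dispersion 0.0239, and Benjamini-Hochberg adjustment. A fitted fold of a gene at 0 UMIs depends on the prior count, so bounds with 3 UMIs over both pools are printed, and with 1 to 3 UMIs a pooled ratio with an exact 95% counting interval. That interval treats UMIs as independent, also where several lay in 1 cell. On simulated counts for this comparison (4210 genes), 34.3% of 2-fold, 92.5% of 4-fold and 100% of 8-fold changes were called, and 1.31% of 153 calls were false. The changes (67, 67 and 66 genes) were put only into genes with many UMIs, and every gene had the common dispersion. These shares therefore do not carry over to genes with few UMIs, and far fewer genes changed than were called in the data. A true 2-fold change lies on the fold limit, which by itself bars many such calls. Pituicytes and IL cells of 1 pool share their 5 mice, which pairs the sums, although pool differences in the 2 sides correlated little (Pearson r = 0.084 across genes, 1 pair). The pool as a block was an alternative, beside DESeq2 1.42.0, other scalings, filters, cell choices and a subtraction of free RNA (estimated at 6.10% and 5.19% of UMIs).

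Named genes were the 4 markers and the 12 largest fitted fold changes per direction at 100 CPM or more in both pools. From each list, up to 4 called members per direction and 2 not called were added. Lists of markers of other cell types instead gave their most abundant member on each side. The 5 most abundant uncalled genes outside ribosomal and mitochondrial genes were also named. Cd74, Prl, Avp, Scg2, Gfap, S100b, Drd2 and Oxtr were named after their values were seen. Some genes that the rule names are not reported here. Members and lists were chosen with earlier results of these data known. Gene coordinates follow GENCODE on mm10.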

Additional observations from a re-analysis of the deposited data

Results flagged for a closer look

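Barcodes of pool 1 with 1 to 50 UMIs (157608 barcodes, not counted as cells) held RNA of both sides above the 1.59 CPM that a count of 3 would give. Pomc stood at 15745 CPM there, Pcsk2 at 233 CPM, Col25a1 at 153 CPM and Scn7a at 252 CPM. The neurohormone genes reached 6303 CPM for Oxt and 1375 CPM for Avp. These barcodes lay outside the comparison, except that they gave the free RNA profile used for both pools. Pool 2 held 1500 barcodes in all and so gave no such profile of its own.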

How the results depend on the processing

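The 2 pools limit the test to large changes, and 2007 genes could not be placed on either side of 2-fold. With the pool as a replicate block, 666 genes were higher in pituicytes and 624 in IL cells (659 and 606 shared with the values reported), and no named gene changed its call. DESeq2 called 384 and 340, all among those reported, and 15 named genes lost their call, Gh, Nnat, Dlk1 and Ctsl among them. Testing every gene with a UMI (15145 genes) gave 1043 and 982. Cells with a mitochondrial share under 10% gave 283 and 293 (261 and 266 shared), and cells thinned to 1000 UMIs 222 and 150 (216 and 137 shared), where fewer UMIs left fewer genes to test. Each pool alone, with no test, left 587 to 599 of the pituicyte genes and 539 to 545 of the IL genes past the fold limit. The genes had been called on both pools together, so these counts are no replication. The counts stayed within 1.5 times the reported ones under library size, median-of-ratios scaling, 14 sums of 7 cell types, Pomc left out, free RNA subtracted (671 and 612), cells picked by markers, a fold limit on the natural log scale (518 and 446) and 3 choices made after seeing the data (without the 17 cells, without pituicytes c with 612 and 504, without mitochondrial transcripts). The free RNA subtraction rests on an estimate above the measured Oxt of IL cells, so its counts could not test the part of free RNA. Among the genes named by the rule and called, Gh alone changed direction, to a log2 fold change of 0.095 without the 17 cells. Some uncalled named genes near no change also changed sign without these cells, such as Ndrg2 (from 0.13 to -0.03). Library size moved the median of all genes from -0.03 to 0.07.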

Other observations

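Some abundant genes lay outside the naming rule and were chosen after their values were seen. Among growth factors and lipid carriers, Ptn, or pleiotrophin, had 4031 and 4845 CPM in pituicytes and 217 and 120.2 CPM in IL cells (log2 fold change 4.60 ± 0.31 SE, edgeR adjusted p = 1.66e-14). Igfbp5, which binds insulin-like growth factors, had 1999 and 1767 CPM and 67.6 and 44.1 CPM (log2 fold change 4.96 ± 0.32 SE, edgeR adjusted p = 5.15e-15), and the lipid carrier Apoe 2096 and 2166 CPM and 132 and 208 CPM (log2 fold change 3.56 ± 0.28 SE, edgeR adjusted p = 4.93e-13). All 3 were higher in pituicytes in both pools. The retina and hypothalamus homeobox gene Rax had 331 and 288 CPM in pituicytes and 2 and 0 UMIs in IL cells. Sox9, a factor of glial progenitors, had 488 and 299.8 CPM and 14.2 and 16 CPM (log2 fold change 4.57 ± 0.39 SE, edgeR adjusted p = 5.32e-12), a wider gap than Sox2, a stem cell factor read on both sides (191 and 142 CPM and 42.7 and 68.1 CPM, log2 fold change 1.50 ± 0.34 SE, edgeR adjusted p = 6.05e-04), though the difference between the 2 genes was not tested.

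On the IL side, the imprinted long RNA Meg3 had 3255 and 2817 CPM in pituicytes and 14602 and 12279 CPM in IL cells (log2 fold change -2.24 ± 0.27 SE, edgeR adjusted p = 2.21e-08), and Gnas, which encodes the stimulatory G protein alpha subunit, 717 and 501 CPM and 4921 and 4348 CPM (log2 fold change -3.02 ± 0.28 SE, edgeR adjusted p = 3.08e-11). Fos and Egr1 were read on both sides and were higher in IL cells, Fos at 658 and 604 CPM against 3452 and 3298 CPM (log2 fold change -2.51 ± 0.26 SE, edgeR adjusted p = 5.03e-10) and Egr1 at 187 and 178 CPM against 1323 and 1194 CPM (log2 fold change -2.88 ± 0.26 SE, edgeR adjusted p = 2.28e-11). Tbx19, the factor that drives Pomc in the pituitary, had 1 and 2 UMIs in pituicytes and 146 and 120.2 CPM in IL cells (21.8-fold, with a 95% counting interval of 7.17 to 108). Scg2, or secretogranin II, had 8.49 and 90.7 CPM in pituicytes and 992 and 1166 CPM in IL cells (log2 fold change -4.50 ± 0.37 SE, edgeR adjusted p = 1.78e-12), and no Scg2 UMI was left in pituicytes without the 17 cells.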
